A study of Homo sapiens with 4 samples.

Results

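The proteasome subunits are the protein-coding genes of GENCODE 29 whose symbol is PSMA, PSMB, PSMC or PSMD followed by digits, with PSMB8 and PSMB9 set aside. The rule used symbols and no measured value. It found 36 genes among the 28274 in the deposited table, 16 of the core (PSMA1 to PSMA8, PSMB1 to PSMB7 and PSMB10) and 20 of the cap (PSMC1 to PSMC6 and PSMD1 to PSMD14). RNA was sequenced from the human cell line that the labels spell J-gammal, in 2 libraries with knockdown of FYB1 (titled sh-FYB1) and in 2 control libraries (titled NC, with a source that names no treatment and a genotype of none). No other agent or allele is named for either group. The hairpin sequence, the number of constructs and whether the controls carried a construct are absent from the labels used here. Because no label ties a library to a culture of its own, the p-values reflect library-to-library spread, part of which may be technical.

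The proteasome is the protease that degrades ubiquitin-tagged proteins in the cytosol and nucleus of every cell, T cells included. Alpha subunits (PSMA) form the outer rings of its barrel-shaped core and gate the entry, and beta subunits (PSMB) form the inner rings, among them the subunits that cut peptide bonds. The cap on the end of the barrel holds ATPases (PSMC) that unfold the substrate, and non-ATPase subunits (most PSMD) that bind ubiquitin chains, remove them or hold the cap together. Lymphoid cells also make immunoproteasomes, in which PSMB8, PSMB9 and PSMB10 take the places of the catalytic PSMB5, PSMB6 and PSMB7.

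The knockdown libraries held 16693113 and 20251864 reads assigned to genes, and the controls 17597678 and 17216663. Values are FPKM, reads per kilobase of exon, scaled by the authors to a total for each library. That total lies above the assigned reads in both knockdown libraries and below them in both controls, so it is not a count of those reads. Log2 fold changes are knockdown minus control of log2(FPKM + 1), a scale that understates the change of low genes. FYB1, the targeted adaptor of T cell receptor and integrin signalling, stood at 6.18 and 4.53 FPKM in knockdown libraries, against 17.6 and 20.1 FPKM in controls (log2 fold change -1.65 ± 0.15 SE, adjusted p = 0.0398 by limma-trend with Benjamini-Hochberg adjustment). By limma-voom the adjusted p was 0.000419, and it passed in 12 of 12 alternative settings. The limma-trend call was lost without knockdown library 1 (log2 fold change -1.84) and without knockdown library 2 (log2 fold change -1.46). It was also lost when every gene above 0 was tested (adjusted p = 0.264 by limma-trend). All 12 T cell markers examined averaged at least 1 FPKM, and their summed level was 1716 and 2182 FPKM in knockdown libraries, against 3172 and 2857 FPKM in controls. The T cell receptor beta constant gene TRBC1 made up the largest part of that gap (469 and 647 FPKM in knockdown libraries, against 1404 and 1237 FPKM in controls). The markers did not move together, since TRAC (406 and 459 FPKM in knockdown libraries, against 399.6 and 373 FPKM in controls) and CD3G (24.1 and 25.2 FPKM in knockdown libraries, against 21.5 and 20.6 FPKM in controls) were higher in both knockdown libraries, and for LCK the groups overlapped. None of 5 myeloid, 4 erythroid and 5 epithelial or stromal markers averaged 1 FPKM. The B cell marker CD79A did (11.1 and 15.8 FPKM in knockdown libraries, against 24.5 and 21.2 FPKM in controls), as did NKG7 of the 3 natural killer markers. MS4A1, another B cell marker, did not. The part of these marker levels in the results below was not tested. In bulk RNA, fewer cells of a type and less RNA per cell cannot be told apart.

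Transcripts of the proteasome leaned lower in the knockdown libraries. Of the 35 subunits with a mean of at least 1 FPKM, the minimum for testing, 33 had a negative log2 fold change, where 54.3% of all 13172 tested genes did. Both knockdown libraries lay below both controls for 22 of them (62.9%), against a background of 34.6%, and both lay above for 2 (PSMA3 and PSMA8), against 26.0%. The groups overlapped for the remaining 11. The median log2 fold change of the subunits was -0.24 (range -0.79 to 0.28), and that of all tested genes was -0.03. The count on the lower side depended on scaling: it was 25 of 35 under quantile normalization, where 49.0% of all genes were lower, and 26 of 35 when libraries were scaled to their summed reads, where 39.2% were. PSMA2 alone missed the minimum, with 0.986 and 0.997 FPKM in knockdown libraries, against 0.844 and 0.848 FPKM in controls.

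Single subunits reached significance in the read-based test and not in the FPKM-based one. With limma-trend on log2(FPKM + 1) and Benjamini-Hochberg adjustment over all tested genes, 0 of 35 subunits passed 0.05, where 0.137% of all genes passed as lower and 0.0683% as higher, and the lowest adjusted p was 0.109 (PSMD13). At an unadjusted p below 0.05, 7 subunits were lower (20%), against 14.9% of all genes. With limma-voom on the whole reads recovered from the FPKM values, 3 subunits passed, all lower (8.57%), against 5.8% of all genes lower and 1.94% higher. These were PSMB5, PSMB6 and PSMD13. Against genes of like level the calls were no more frequent: 2 of 12 subunits at a mean of 50 FPKM or more were called lower, where 19.6% of all genes there were, and 1 of 9 between 20 and 50 FPKM, where 14.5% were.

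**Figure D1:**
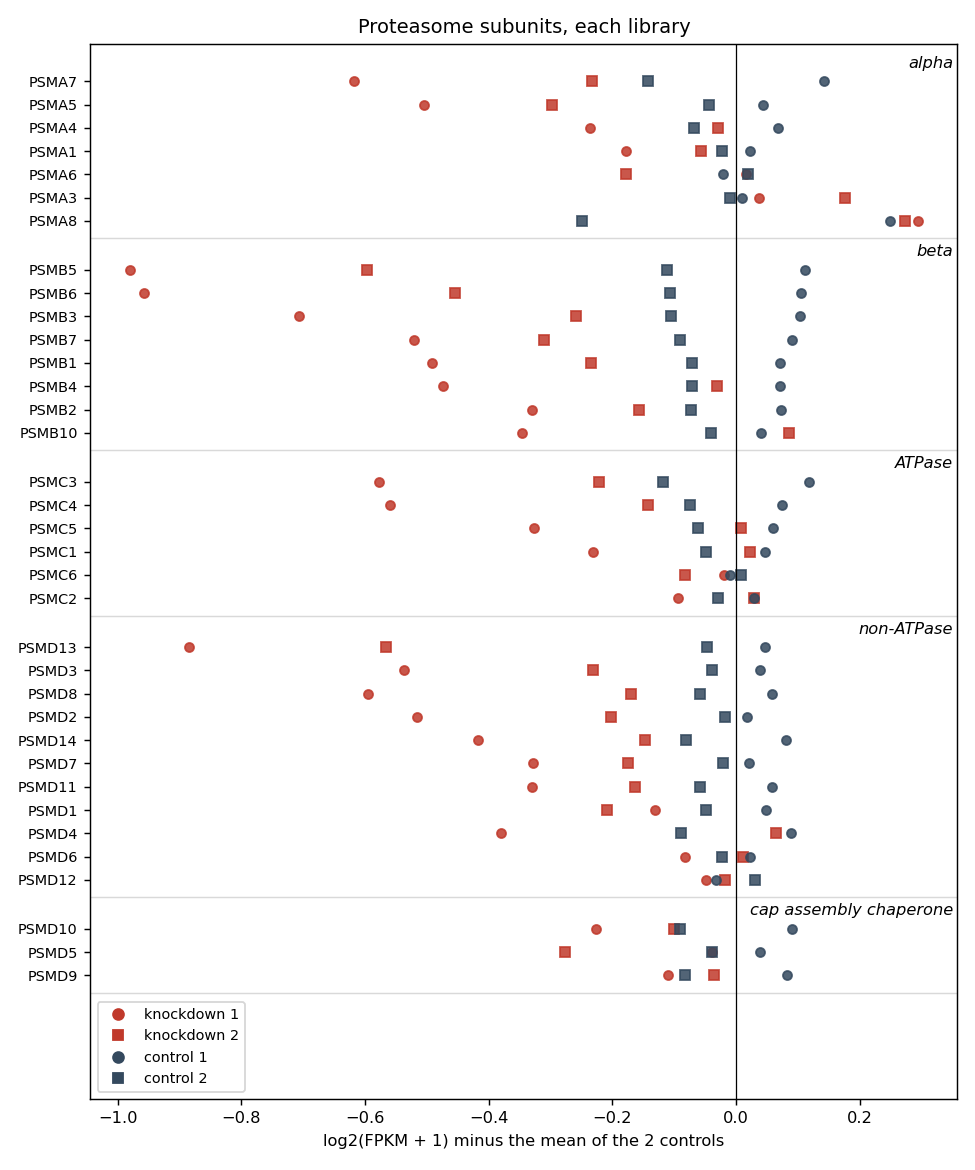
Each proteasome subunit tested, grouped by class, in each of the 4 libraries; the x axis is log2(FPKM + 1) minus the mean of the 2 controls, red marks are knockdown libraries 1 (circle) and 2 (square), and dark marks are controls 1 and 2. PSMB5, PSMB6 and PSMD13 lie farthest to the left in both knockdown libraries, knockdown library 1 lies left of knockdown library 2 for most subunits, and PSMA3 and PSMA8 lie right of both controls.

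The plot of subunits by library shows that the libraries did not shift alike. Relative to the control mean on the log2(FPKM + 1) scale, the median subunit stood at -0.33 in knockdown library 1 and -0.16 in knockdown library 2, and at 0.058 and -0.058 in the controls. The authors' total was 18436617 for 16693113 assigned reads in knockdown library 1, and 20480491 for 20251864 in knockdown library 2. In controls it was 16648943 for 17597678 assigned reads and 16789004 for 17216663. The part of this scaling in the gap between libraries was not tested. Without knockdown library 1 the median log2 fold change of the subunits was -0.16 with 27 of 35 on the lower side, and without knockdown library 2 it was -0.33. All tested genes had medians of -0.014 and -0.055 in these fits, in the order named, and 52.5% were on the lower side without knockdown library 1. Each fit assumes that the lone knockdown library varies like the controls, so calls made or lost in it, here and below, rest on that assumption.

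PSMB5 and PSMB6, catalytic subunits of the standard core, and the cap subunit PSMD13 had the most negative log2 fold changes of the 35. PSMB5 (chromosome 14, 23016543 to 23035230, minus strand, hg38) makes the chymotrypsin-like cut and is the main target of bortezomib. It had 32.9 and 43.2 FPKM in knockdown libraries, against 71.2 and 60.8 FPKM in controls. The groups did not overlap, and the mean was 38.0 ± 7.29 FPKM in knockdown libraries and 66.0 ± 7.32 FPKM in controls (SD, n = 2 each), a ratio of 0.576. Its log2 fold change of -0.79 ± 0.17 (SE) missed the threshold of limma-trend (adjusted p = 0.120) and passed that of limma-voom (adjusted p = 0.0169).

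PSMB6 (chromosome 17, 4796144 to 4798503, plus strand) makes the caspase-like cut. It had 45.9 and 65.5 FPKM in knockdown libraries, against 97.0 and 83.6 FPKM in controls, again without overlap. The log2 fold change, -0.71 ± 0.20 (SE), likewise passed limma-voom (adjusted p = 0.0304) and not limma-trend (adjusted p = 0.149). PSMB7 makes the trypsin-like cut and had 79.9 and 92.6 FPKM in knockdown libraries, against 123 and 108 FPKM in controls. It was lower in both knockdown libraries, with a log2 fold change of -0.42 ± 0.15 (SE), but passed neither test (adjusted p = 0.182 by limma-trend and 0.0663 by limma-voom).

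The immunoproteasome counterparts did not separate by group. PSMB8, which replaces PSMB5, had 44.2 and 57.7 FPKM in knockdown libraries, against 56.5 and 54.4 FPKM in controls. PSMB9, which replaces PSMB6, had 13.6 and 19.6 FPKM in knockdown libraries, against 21.0 and 18.7 FPKM in controls. PSMB10, which replaces PSMB7, had 5.27 and 7.46 FPKM in knockdown libraries, against 7.20 and 6.75 FPKM in controls. For all 3 the groups overlapped, and the adjusted p values were 0.397 or more by limma-trend. PSMB8 and PSMB10 turned to a positive log2 fold change without knockdown library 1 (0.06 and 0.09).

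The same levels can be read as the balance between each pair within a library. PSMB8 made up 57.4% and 57.2% of the summed FPKM of PSMB8 and PSMB5 in knockdown libraries, against 44.2% and 47.2% in controls. PSMB9 made up 22.9% and 23.0% of its pair with PSMB6 in knockdown libraries, against 17.8% and 18.3% in controls. PSMB10 made up 6.18% and 7.45% of its pair with PSMB7 in knockdown libraries, against 5.54% and 5.88% in controls. All 3 shares were higher in both knockdown libraries than in either control. These shares restate the levels above on another scale. An exact permutation test gave p = 0.333 for each share. That is the smallest value that 2 against 2 libraries allow, so the test cannot decide. PSMB10 is the least certain of these, because 58.3% of its coding sequence lies in exons of another annotated gene on the same strand.

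**Figure D2:**
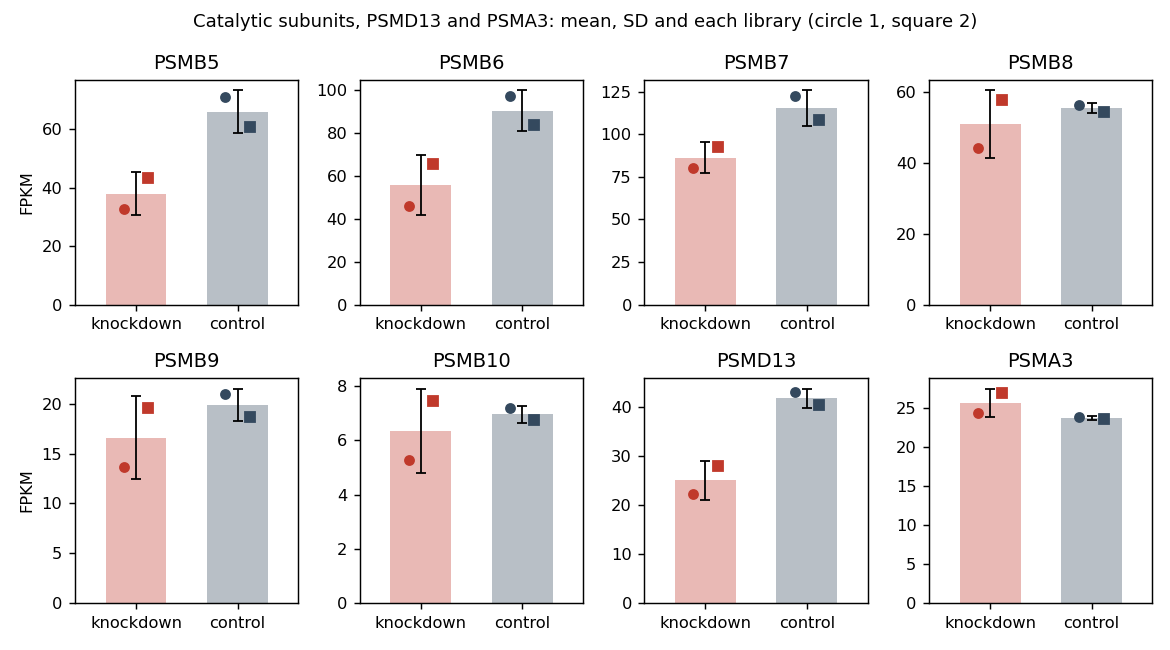
FPKM (y axis, from 0, with a scale of its own in each panel) of the standard catalytic subunits, their immunoproteasome counterparts, PSMD13 and PSMA3, knockdown left of control; bars are group means, error bars are the SD of 2 libraries, and points are libraries 1 (circle) and 2 (square). The knockdown points of PSMB5, PSMB6, PSMB7 and PSMD13 lie below both control points, those of PSMB8, PSMB9 and PSMB10 overlap them, and those of PSMA3 lie above.

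Among the other beta subunits, which build the inner rings without cutting, PSMB3 had 84.6 and 116 FPKM in knockdown libraries, against 149 and 129 FPKM in controls (adjusted p = 0.214 by limma-trend and 0.0732 by limma-voom). PSMB1, PSMB2 and PSMB4 had log2 fold changes of -0.24 to -0.36. All 8 beta subunits were on the lower side (7 under quantile normalization). Their median log2 fold change was -0.39, the lowest of the subunit classes. For 6 of them (75%) both knockdown libraries lay below both controls, as they did for 34.6% of all tested genes. The beta subunits had a median level of 70.3 FPKM. Of all genes at 50 FPKM or more, 73.7% lay lower without overlap, and their median log2 fold change was -0.36.

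The alpha subunits were mixed. Of 7 tested, 5 were on the lower side, 3 of them without overlap (42.9% of the 7, against 34.6% of all tested genes). The other 2 were on the higher side, and the median log2 fold change was -0.12. PSMA7, the core subunit with the highest mean level, had 98.9 and 129 FPKM in knockdown libraries, against 168 and 138 FPKM in controls (log2 fold change -0.42 ± 0.19 SE, adjusted p = 0.243 by limma-trend). PSMA5, another alpha ring subunit, had a log2 fold change of -0.40 with no overlap and missed the threshold of limma-voom with an adjusted p of 0.0617.

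On the higher side, PSMA3 had 24.4 and 26.9 FPKM in knockdown libraries, against 23.9 and 23.5 FPKM in controls (log2 fold change 0.11 ± 0.11 SE, adjusted p = 0.548 by limma-trend). PSMA8, the alpha subunit of the testis-specific proteasome that stands in for PSMA7, had 3.21 and 3.15 FPKM in knockdown libraries, against 3.08 and 1.89 FPKM in controls. With 60 to 122 reads per library, its log2 fold change was 0.28 ± 0.18 (SE; adjusted p = 0.375 by limma-trend). In both genes the groups did not overlap, but the nearest knockdown and control libraries differed little. PSMA6, the lowest tested core subunit, had 1.28 and 0.998 FPKM in knockdown libraries, against 1.23 and 1.29 FPKM in controls, with overlap.

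In the cap, PSMD13 (chromosome 11, 236546 to 252984, plus strand), a scaffold subunit of the lid, stood apart. It had 22.1 and 27.8 FPKM in knockdown libraries, against 43.1 and 40.3 FPKM in controls, without overlap. The mean was 25.0 ± 4.05 FPKM in knockdown libraries and 41.7 ± 1.96 FPKM in controls (SD, n = 2 each), a ratio of 0.599. Its log2 fold change of -0.73 ± 0.14 (SE) passed limma-voom (adjusted p = 0.0156) and missed the threshold of limma-trend (adjusted p = 0.109). SIRT3, its neighbour on the opposite strand that shares 6.63% of its exon bases, was examined after its values were seen. It had 4.85 and 5.84 FPKM in knockdown libraries, against 5.85 and 6.05 FPKM in controls (log2 fold change -0.14, adjusted p = 0.472 by limma-trend).

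All 11 non-ATPase subunits of the cap were on the lower side (8 under quantile normalization and 9 with summed reads as the library total). Their median log2 fold change was -0.25 and their median level 21.2 FPKM. For 8 of them (72.7%) both knockdown libraries lay below both controls. That held for 34.6% of all tested genes and for 58.0% of those between 20 and 50 FPKM. PSMD4, a ubiquitin receptor and the cap subunit with the highest mean level, had 63.9 and 87.3 FPKM in knockdown libraries, against 88.8 and 78.4 FPKM in controls, and the groups overlapped. PSMD12, a lid subunit, differed least, with 11.5 and 11.8 FPKM in knockdown libraries, against 11.7 and 12.2 FPKM in controls (log2 fold change -0.03 ± 0.09 SE). PSMD2 and PSMD3 of the base and lid had log2 fold changes of -0.36 and -0.38 without overlap. PSMD14, the lid enzyme that removes ubiquitin chains, stood at -0.28.

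The 6 ATPases of the cap had log2 fold changes of -0.40 (PSMC3) to -0.03 (PSMC2), with a median of -0.13. For 3 of them (50%) both knockdown libraries lay below both controls. That held for 34.6% of all tested genes and for 58.0% of those between 20 and 50 FPKM. The median level of the ATPases was 27.8 FPKM. With summed reads as the library total, 3 of the 6 turned positive. The 3 chaperones that help the cap assemble, PSMD5, PSMD9 and PSMD10, had a median of -0.16. PSMD9, the lowest cap gene, had 1.35 and 1.48 FPKM in knockdown libraries, against 1.69 and 1.40 FPKM in controls, with overlap. None of these 9 genes passed limma-voom, where the lowest adjusted p was 0.102 (PSMC3).

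Core and cap did not part clearly. The median log2 fold change was -0.25 over 15 core subunits, with 13 on the lower side, and -0.17 over 20 cap subunits, with all 20 on the lower side. Under quantile normalization 11 core and 14 cap subunits were on the lower side, and with summed reads as the library total 12 and 14 were. The core median minus the cap median was -0.09. Within libraries the same gap, as deviation from the control mean, was -0.147 and -0.0322 in knockdown libraries, and 0.0234 and -0.0234 in controls, with a pooled SD between libraries of 0.0621. Knockdown library 2 thus lay close to the controls. The gap was -0.0060 without the cap chaperones PSMD5, PSMD9 and PSMD10. It was -0.21 without the subunits that share over 50% of their coding sequence with another gene, a choice made after the data were seen.

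Those 5 genes are PSMA1 (88.6% of the coding sequence shared), PSMA2 (97.1%), PSMA6 (70.4%), PSMB10 and PSMD9 (58.7%). They had mean levels of 10.1, 0.919, 1.20, 6.67 and 1.48 FPKM over the 4 libraries, in the order named, while the median subunit tested had 27.5 FPKM. The labels do not say how reads in shared exons were counted, so the levels of these genes are uncertain. In all, 13 subunits share some exon bases with another gene, and of 10 pseudogenes of subunits in the table, PSMA6P1 and PSMC1P1 averaged at least 1 FPKM.

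The differences of the subunits followed their level, as those of the transcriptome did. Of the 791 genes at a mean of 50 FPKM or more, 87.1% had a negative log2 fold change, 73.7% had both knockdown libraries below both controls, and the median log2 fold change was -0.36. The 12 subunits in that range had a median of -0.39, and 10 had no overlap. Between 20 and 50 FPKM the median was -0.24 for 9 subunits and -0.20 for 1686 genes. Between 5 and 20 FPKM it was -0.13 for 11 subunits and -0.05 for 5266 genes. All 11 of those subunits were on the lower side, where 57.1% of genes were, and 6 had no overlap, where 36.7% of genes had both knockdown libraries below both controls. Between 1 and 5 FPKM the medians had opposite signs, -0.07 for 3 subunits and 0.07 for 5429 genes. In each of these ranges the median subunit thus lay below the median gene of like level. The pooled SD between libraries of the median over all tested subunits was 0.104, so these gaps do not part the ranges. The 3 subunits between 1 and 5 FPKM are PSMA8, with a log2 fold change of 0.28, and PSMA6 and PSMD9, whose levels are uncertain.

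Across genes, the log2 fold change and the mean level had a Spearman rho of -0.70 over the 35 subunits and -0.36 over all tested genes. With merged exon length the rho was 0.45 over the subunits and 0.22 over all genes, and with GC content it was -0.56 and -0.29. These are descriptions, since genes of the same libraries share depth and RNA quality and are not replicates. The core genes were shorter (median merged exon length of 2207 bases, against 4865.5 for the cap), and all 7 subunits under 2000 bases belong to the core. Those 7 had a median log2 fold change of -0.42, where all genes under 2000 bases, of any level, had -0.07. Of the 7, PSMA7, PSMB3, PSMB5, PSMB6 and PSMB7 averaged 52.0 to 133 FPKM. All genes at 50 FPKM or more had a median of -0.36.

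**Figure D3:**
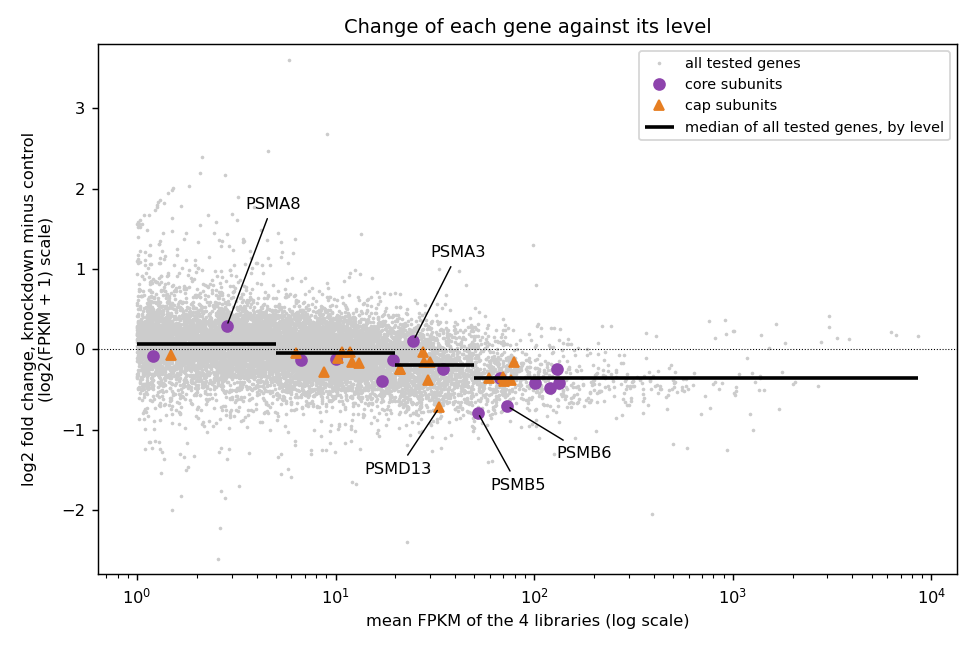
Log2 fold change (knockdown minus control, log2(FPKM + 1) scale) against mean FPKM of the 4 libraries on a log axis, for all tested genes (grey), core subunits (purple circles) and cap subunits (orange triangles); black lines are medians of all tested genes by level. The black lines step down from 0.07 at 1 to 5 FPKM to -0.36 at 50 FPKM or more, most subunits lie near them, and PSMB5, PSMB6 and PSMD13 lie below.

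PSMB5, PSMB6 and PSMD13 lay below the median of their level range, by their log2 fold changes of -0.79 and -0.71 beside -0.36, and -0.73 beside -0.20. Across 12 alternative settings of the limma-voom test, PSMB5 passed in 9 (log2 fold change -1.001 to -0.61) and PSMD13 in 9 (-0.91 to -0.58). PSMB6 passed in 7 (-0.97 to -0.46). These settings include the fits with 1 library left out, and the most negative value of each gene came without knockdown library 2. They also include a crossed pairing of the replicate numbers, added after the data were seen. That pairing called 4007 of all tested genes by limma-voom, where the main test called 1019, so a pass in it says little. All 3 genes kept their direction in each setting. All 3 calls were lost without knockdown library 1, without control library 1, and when every gene above 0 was tested. That of PSMB6 was also lost under quantile normalization (adjusted p = 0.0522 by limma-voom) and when libraries were scaled to their summed reads (adjusted p = 0.0573).

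Promoters were searched for short words in PSMB5, PSMD13 and other subunits. The window ran from 250 bases before to 50 bases after the start of transcription in RefSeq (GRCh38.p14), and 31 of the 36 subunits were matched to a window, with PSMB6 not among them. Matches to 3 words were searched on both strands, each counted independently of overlap with the others, and they were chosen with the values known. TGACNNNGC is the core of the site bound by NFE2L1 (the protein NRF1) with a small MAF partner. CCAAT is the box bound by NF-Y, and CGGAAG is the core of sites bound by ETS factors. Stretches are shown for called and for near-level subunits so that their elements can be set side by side, 5′ to 3′ on the strand of the gene, with the word in capitals (CTTCCG is the reverse complement of CGGAAG).
PSMB5 (lower by limma-voom; chr14:23035367-23035396, minus strand): tcattattttacCCAATtttagaaggtgcc
PSMD13 (lower by limma-voom; chr11:236946-236975, plus strand): gccccgcgccgctcggcgcCGGAAGtgagt
PSMA3 (higher side, not called; chr14:58244813-58244842, plus strand): ttggcagttcagCCAATgagcgggcctgtt
PSMD12 (near 0; chr17:67366723-67366752, minus strand): agacaaaaccTGACGCTGCaggctggagtg
PSMD12 (near 0, nearest the start; chr17:67366578-67366607, minus strand): gcctgagcgggtgcgcgggcaaCTTCCGgt

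A CCAAT word thus stood in the window of PSMB5, which was lower, and in that of PSMA3, which was on the higher side. A CGGAAG word stood next to the start of PSMD13, which was lower, and of PSMD12, which differed by -0.03. Over all subunits, TGACNNNGC was in 9 of 37 windows (24.3%), against 13.3% of all 35116 windows and 14.7% of those of tested genes, and it was in 2 of 12 core genes and 7 of 19 cap genes. CCAAT was in 16 windows (43.2%), against 34.6% of all windows. CGGAAG was in 23 windows (62.2%), against 19.5% of all windows and 31.5% of those of tested genes. A matching word is a description of the sequence and not evidence of binding.

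The genes that build and drive the proteasome were described in lists chosen with earlier results known, and none of their members passed limma-trend (lowest adjusted p = 0.107, PSMG2). All 6 assembly chaperones of the core and cap were on the lower side, also under both other scalings. Their median log2 fold change was -0.32, beside -0.03 for all tested genes. None of the 6 had overlap, where 34.6% of all tested genes lay lower without overlap. PSMG1 was parted narrowly, by 14.87 FPKM in knockdown library 2 and 14.92 FPKM in control library 2, and PSMG4 averaged 1.09 FPKM. PSMG2, which with PSMG1 pairs alpha subunits into rings, had 12.8 and 12.8 FPKM in knockdown libraries, against 18.3 and 18.6 FPKM in controls (log2 fold change -0.49, adjusted p = 0.0308 by limma-voom). PSMG3, which works with PSMG4, had 22.9 and 29.1 FPKM in knockdown libraries, against 37.6 and 37.7 FPKM in controls (log2 fold change -0.53, adjusted p = 0.0396 by limma-voom). The knockdown libraries lay well below the controls for both.

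Of the activators and the inhibitor of the core, 4 of 5 were on the lower side (3 under quantile normalization), with a median log2 fold change of -0.24. Of all tested genes, 54.3% were on the lower side (49.0% under quantile normalization). The median level of the 5 genes was 26.7 FPKM, and all genes between 20 and 50 FPKM had a median log2 fold change of -0.20. PSME1, a subunit of the interferon-inducible activator that binds the core in place of the cap, had 71.5 and 91.3 FPKM in knockdown libraries, against 120 and 112 FPKM in controls (log2 fold change -0.51, adjusted p = 0.0463 by limma-voom). PSME4, another activator, had a log2 fold change of 0.23 with overlap. The cap subunits with other symbols differed from each other. SEM1 had 3.92 and 5.84 FPKM in knockdown libraries, against 7.13 and 6.83 FPKM in controls (adjusted p = 0.0683 by limma-voom), and the ubiquitin receptor ADRM1 had 37.7 and 55.4 FPKM in knockdown libraries, against 50.6 and 44.9 FPKM in controls, with overlap.

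In the pathway that raises subunit transcription when the proteasome is inhibited, 8 of 10 genes were on the lower side (median log2 fold change -0.12). Under quantile normalization 6 were, and with summed reads as the library total 5 were. The shares of all tested genes were 54.3%, 49.0% and 39.2%, in the order named. MAFK, a small MAF partner of NFE2L1, had 15.8 and 20.8 FPKM in knockdown libraries, against 28.5 and 28.5 FPKM in controls (log2 fold change -0.62, adjusted p = 0.0277 by limma-voom). VCP, the ATPase that pulls NFE2L1 out of the endoplasmic reticulum membrane, had 50.01 and 58.5 FPKM in knockdown libraries, against 77.0 and 74.3 FPKM in controls (log2 fold change -0.48, adjusted p = 0.0490 by limma-voom). NFE2L1 itself had a log2 fold change of -0.39 without overlap and missed the threshold of limma-voom (adjusted p = 0.0762). Of the ubiquitin genes and the enzymes that activate ubiquitin, 5 of 6 were on the lower side (median log2 fold change -0.22), but 2 of 6 under quantile normalization. Their median level was 116 FPKM. Of all genes at 50 FPKM or more, 87.1% were on the lower side, with a median log2 fold change of -0.36. By limma-voom 19.6% of those genes were called lower. VCP, UBB and PSME1 lie in that range. UBB, a polyubiquitin gene, had 75.2 and 98.5 FPKM in knockdown libraries, against 141 and 123 FPKM in controls (log2 fold change -0.61, adjusted p = 0.0329 by limma-voom). Its level is uncertain, because an antisense gene overlaps 28.4% of its exon bases and 56.2% of its coding sequence.

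The proteasome-bound enzymes and shuttles leaned the other way, with 8 of 11 on the higher side (45.7% of all tested genes were), 6 of them without overlap (26.0% of all tested genes), and a median log2 fold change of 0.12. DDI2, the protease that cleaves NFE2L1 into its active form, had 5.43 and 4.35 FPKM in knockdown libraries, against 3.40 and 3.39 FPKM in controls (log2 fold change 0.42, adjusted p = 0.0478 by limma-voom). A neighbour on the same strand, RSC1A1, shares 15.3% of its exon bases. The genes of this list had a median merged exon length of 6661 bases, against 4267 for all tested genes, and all genes of 6000 bases or more had a median log2 fold change of 0.08. With a smooth trend on length and GC content removed, 6 of 11 were on the higher side and their median was 0.02. The log2 fold change of DDI2 was then 0.22, and its limma-voom call was lost (adjusted p = 0.0895), as were those of PSME1 (adjusted p = 0.0523) and PSMG3 (adjusted p = 0.0565). Each of the 7 limma-voom calls named in these lists was lost without knockdown library 1, without control library 1 and without control library 2, where the adjusted p was 0.0532 or more. Each was also lost under quantile normalization and when libraries were scaled to their summed reads.

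**Figure D4:**
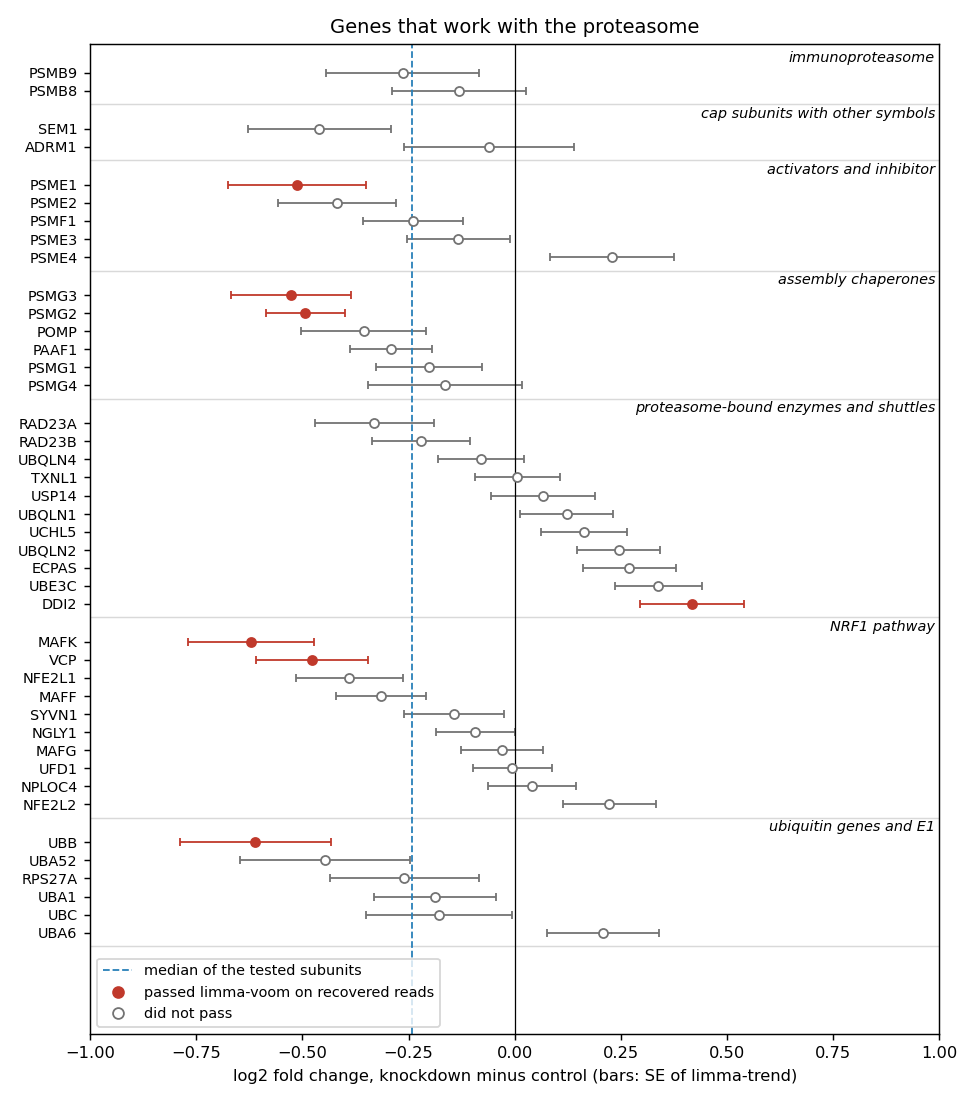
Log2 fold change (knockdown minus control, log2(FPKM + 1) scale) of genes that assemble, activate, regulate or serve the proteasome, by list; bars are standard errors of limma-trend, filled red points passed limma-voom on recovered reads, and the dashed line is the median of the tested subunits, -0.24. Assembly chaperones lie left of 0, and most proteasome-bound enzymes and shuttles lie right of it, with DDI2 highest at 0.42.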

How the data were processed

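Trizol RNA was made into Illumina TruSeq libraries, per the labels' protocols. HISAT2 2.0.5 and the build hg38 are named in the submitters' processing notes, while the counting program, annotation and strand setting are not given there. The deposited table names no unit. Its values were identified as FPKM as the authors scaled them, since each deposited value times the GENCODE 29 merged exon length came to whole multiples of a library-specific step (100% of genes, tolerance 0.001). The steps gave whole reads and the authors' totals (18436617 and 20480491 for knockdown, 16648943 and 16789004 for control).

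The 13172 genes averaging 1 FPKM or more were tested with limma-trend (limma 3.58.1, R 4.3.3) on log2(FPKM + 1), group as the single term, Benjamini-Hochberg threshold 0.05. Limma-voom was run over the same genes, on recovered reads and the authors' totals. The members and lists were chosen with earlier results of these data known. Named genes are FYB1, subunits past either threshold, the 5 lowest and 3 highest by fold change, the catalytic subunits, the extremes of level in core and cap, and up to 4 called or 2 most abundant genes of each related list. Other genes are named to give the range of a count. Alternatives were a replicate block, 2 normalizations, 2 filters, a pseudocount of 0.1 or 5, leaving out each library, a smooth length and GC trend (mgcv 1.9.3), protein-coding genes alone, a minimum fold of 1.5, and other choices of subunits or summary. A crossed block and the exclusion of subunits with shared coding sequence were added after the data were seen.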

Additional observations from a re-analysis of the deposited data

How the results depend on the processing

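The median log2 fold change of the subunits stayed negative in every setting run. It was -0.068 under quantile normalization, and -0.11 when libraries were scaled to their summed reads, a scaling that moved the median of all tested genes to 0.08, against -0.03. The core median was -0.070 under quantile normalization and -0.18 to -0.47 with each library left out. The cap median was -0.036 with summed reads and -0.12 to -0.33 with each library left out. The core minus cap gap was -0.0029 under quantile normalization, -0.19 at a mean of at least 5 FPKM, -0.0060 without the cap chaperones and -0.21 without subunits of shared coding sequence.

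By limma-trend the count over all tested genes was 27, and it was 45 under quantile normalization, 76 with summed reads, 0 with every gene above 0, 181 at 5 FPKM or more, 179 after the length and GC trend, 901 over protein-coding genes, 1019 by limma-voom and 0 to 406 with each library left out. Subunits called numbered 0, against 3 over protein-coding genes and 3 by limma-voom. By limma-voom the count over all tested genes was 513 under quantile normalization, 461 with summed reads, 123 with every gene above 0, 1538 after the trend and 102 to 3877 with each library left out; subunits called were 0 with every gene above 0 and 0 to 20 with each library left out. The causes were not tested.

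Of 25 named genes, 7 changed the sign of their log2 fold change to positive. Under quantile normalization it was 0.20 for ADRM1, 0.13 for PSMB8, 0.045 for PSMD12 and 0.15 for PSMD4. With summed reads it was 0.075 for ADRM1, 0.0044 for PSMB8, 0.095 for PSMD12 and 0.01 for PSMD9. After the length and GC trend it was 0.14 for ADRM1, 0.059 for PSMB10 and 0.024 for PSMB8. With each library left out in turn it ran from -0.33 to 0.21 for ADRM1, -0.18 to 0.016 for PSMA6, -0.35 to 0.086 for PSMB10, -0.32 to 0.056 for PSMB8, -0.38 to 0.065 for PSMD4 and -0.16 to 0.011 for PSMD9.

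Deviations of libraries with equal replicate numbers had a correlation of -0.2066, so the numbers were not taken to pair the libraries. With the number as a replicate block, limma-trend called 781 genes and 2 subunits (PSMB5 and PSMD13). A crossed pairing called 1910 genes and 4 subunits by limma-trend, and 4007 genes and 14 subunits by limma-voom.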
